A study of Mus musculus with 141 samples.

Results

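The genes described here were 10 of the 17136 genes in the count table: the Wnt ligands *Wnt3a*, *Wnt4*, *Wnt7a* and *Wnt7b*, the secreted antagonist *Wif1*, the receptors *Lgr4*, *Lrp5* and *Lrp6*, and the pathway readouts *Axin2* and *Ctnnb1*. They were taken by name. The cells came from the lungs of 1 male *ACID;R26tdTomato* mouse of 4 months (strain 129SV in the labels). *ACID* is a Cre cassette inserted into *Aqp5*, and *R26tdTomato* is a reporter that Cre switches on for good, so a red cell is one that expressed *Aqp5* at some time and need not express it now. The mouse carried 1 copy of each allele. CD31-, CD45-, E-cadherin+ and tdTomato+ cells were sorted and captured singly on a Fluidigm C1 chip. There was 1 mouse and 1 condition, so cells are not replicates and no test was run. Every interval below covers counting error at most. Intervals of sums and ratios take reads as independent and leave out the spread between cells. Reads came from PCR-amplified material with no molecular identifiers stated, so these intervals are too narrow as limits on a level.

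Cells with less than 15% of their reads on mitochondrial genes were kept, which left 92 cells and removed 49. The 92 had a median of 553963 reads. Alveolar type 1 (AT1) cells were those with *Ager* at 5000 CPM (reads of a gene per 1000000 reads of the cell) or more, and alveolar type 2 (AT2) cells those with *Sftpc* at 8000 CPM or more. These cuts gave 45 AT1 cells (48.9%, exact binomial 95% interval 38.3 to 59.6), 11 AT2 cells and 36 other cells, called the rest. No cell passed both. The lowest *Ager* value inside the cut was 9335 CPM and the highest outside was 1402 CPM. For *Sftpc* these values were 25437 and 7774 CPM. Clustering without the Wnt genes at resolution 1.6 divided the rest into 15 club-like, 12 ciliated-like and 9 basal-like cells, led by *Scgb3a1*, *Rsph1* and *Krt17*. It placed the 45 AT1 cells in 2 clusters of their own, of 23 and 22 cells, and put 1 AT2 cell, the one with the lowest *Sftpc*, with the club-like cells. At resolution 0.8 the AT1 cells made 1 cluster, and the club-like and basal-like cells with that AT2 cell made 1 cluster of 25, so the basal-like group exists at the finer setting alone. *Ptprc* of leukocytes had no read in the kept cells. Of the endothelial markers, *Cdh5* had 2 reads, and *Pecam1* had 10 in AT1 cells, 2 in AT2 cells and 38 in the rest. Of those 38 reads, 33 were in 1 ciliated-like cell. Summed over 6 endothelial markers, the highest value was 291 CPM, in a club-like cell. The 2 cells with the most reads of the fibroblast markers *Vim*, *Col1a1*, *Col1a2* and *Col3a1* stood apart from their groups in these genes. They were 1 club-like and 1 basal-like cell, and neither had a read of the basal keratin *Krt5*. The basal-like one had no read of the basal markers *Trp63* and *Krt15* either. At 100 CPM or more it had 0 of 8 basal markers and 4 of 6 fibroblast markers. It is called basal-like by its cluster alone. Over all 6 fibroblast markers of the table, *Dcn* among them, the 9 basal-like cells had a median of 2107 CPM and up to 6386 CPM. *Dcn* was among the leading genes of the basal-like group, so fibroblast markers were not confined to the 2 cells. The basal-like levels of *Wnt4* and *Ctnnb1* are given with and without the basal-like one of the 2. All other values include both cells.

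Wnt proteins are lipid-modified ligands that *Porcn* and *Wls* make ready for secretion. They bind a Frizzled receptor together with *Lrp5* or *Lrp6*, which keeps β-catenin (*Ctnnb1*) from being degraded, and β-catenin with TCF/LEF factors then switches on targets such as *Axin2*, itself a brake on the pathway. *Lgr4* binds R-spondins, which raise the number of receptors at the surface, and *Wif1* binds the ligands outside the cell. In the lung the pathway is known for alveolar stem cell maintenance, for AT1 and AT2 differentiation and for airway patterning.

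Because the data bear on which ligand genes are transcribed in which cells, the last 100 bases before the start of the 3 ligand genes with reads in several cells, of *Wif1* and of *Axin2* are shown. They are RefSeq sequences of GRCm38, read 5′ to 3′ on the gene's strand and ending before any annotated start of that gene. Capitals mark CpG pairs.
*Wnt3a* (chr11:59290753-59290852, minus strand): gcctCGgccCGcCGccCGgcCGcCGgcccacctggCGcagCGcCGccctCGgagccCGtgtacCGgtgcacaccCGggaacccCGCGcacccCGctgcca
*Wnt7a* (chr6:91411364-91411463, minus strand): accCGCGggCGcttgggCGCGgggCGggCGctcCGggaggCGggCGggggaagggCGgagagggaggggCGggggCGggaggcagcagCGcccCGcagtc
*Wnt4* (chr4:137277389-137277488, plus strand): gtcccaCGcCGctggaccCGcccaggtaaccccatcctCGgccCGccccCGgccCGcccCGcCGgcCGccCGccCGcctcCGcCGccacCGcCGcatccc
*Wif1* (chr10:121033860-121033959, plus strand): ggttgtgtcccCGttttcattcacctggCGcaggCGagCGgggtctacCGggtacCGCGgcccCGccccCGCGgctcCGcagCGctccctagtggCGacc
*Axin2* (chr11:108920249-108920348, plus strand): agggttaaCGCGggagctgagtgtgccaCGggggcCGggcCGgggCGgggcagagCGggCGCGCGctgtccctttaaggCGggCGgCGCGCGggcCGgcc

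The ligand starts were rich in G and C. In the 250 bases before its RefSeq start, *Wnt3a* had 87.6% G+C, *Wnt4* 85.2% and *Wnt7a* 77.6%, against a median of 59.6% over 10125 genes of the table. Only 0.0691% of those genes reached the *Wnt3a* value and 0.277% the *Wnt4* value, while 39.2% reached that of *Wif1* (62.8%). The letters CTTTGA or CTTTGT, the core that TCF/LEF factors bind, were searched on both strands of the 300-base windows. They were in 0 of the 8 windows that cover 7 of the genes, including *Axin2*, and in 31.2% of all 32851 windows. The absence of these letters covers that window alone. The genes themselves lie at chr11:59248033-59290752 (*Wnt3a*), chr6:91363981-91411363 (*Wnt7a*), chr4:137277489-137299726 (*Wnt4*), chr15:85535437-85582473 (*Wnt7b*), chr10:121033960-121100650 (*Wif1*) and chr11:108920349-108950783 (*Axin2*), and each value is a count over the gene's exons.

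The ligands divided by cell class. *Wnt3a* and *Wnt7a* were higher in AT1 cells and *Wnt4* in the rest. *Wnt7b* was also higher in the rest, but 400 of its 420 reads there were in 1 cell. AT2 cells had hardly a read of any of the 4. Every one of these levels was carried by a minority of cells with many reads each, while the other cells of the class had none or a few. Reads of 10 or more in a cell are therefore given beside the share of cells with any read.

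*Wnt3a*, a ligand of canonical β-catenin signaling, had 1985 reads in AT1 cells, 0 in AT2 cells and 2 in the rest. Among the 45 AT1 cells its level ran from 0 through a median of 0 to 1039 CPM. The 11 cells with 10 or more reads held 17 to 487 reads each, with a median of 231 CPM. The summed level was 85.8 CPM in AT1 cells (95% interval 82.1 to 89.7) and 0.0739 CPM in the rest, a log2 ratio of 10.18 (8.33 to 13.23) that rests on 2 reads in the rest. Against AT2 cells it was at least 185-fold higher, taking 3 reads as the floor. Without the AT1 cell with the most reads, at chip column 4 and row 39, the AT1 level was 66.1 CPM. Over chip columns 1 to 10 the AT1 level was 86 CPM and over columns 11 to 20 it was 85.6 CPM, so neither side of the chip carried it alone.

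*Wnt7a*, a ligand known from β-catenin and from polarity signaling, had 6136 reads in AT1 cells, 8 in AT2 cells and 13 in the rest. Its AT1 values ran from 0 through a median of 0 to 2538 CPM, and 11 cells held 14 to 1323 reads each with a median of 909 CPM. No cell outside AT1 had more than 6 reads. The summed level of 265 CPM (259 to 272) in AT1 cells stood at a log2 ratio of 9.11 (8.33 to 10.02) to the rest and 7.75 (6.77 to 8.96) to AT2 cells. Without its top cell, at column 4 and row 36, it was 216 CPM. Chip position moved with this level: 9 of 26 AT1 cells of columns 1 to 10 had 10 or more reads but 2 of 19 of columns 11 to 20, and the sums were 449 and 22.3 CPM. Within columns 11 to 20 alone the log2 ratio was 5.49 to the rest and 3.77 to AT2 cells, and within columns 1 to 10 it was 9.89 and 9.30.

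**Figure D1:**
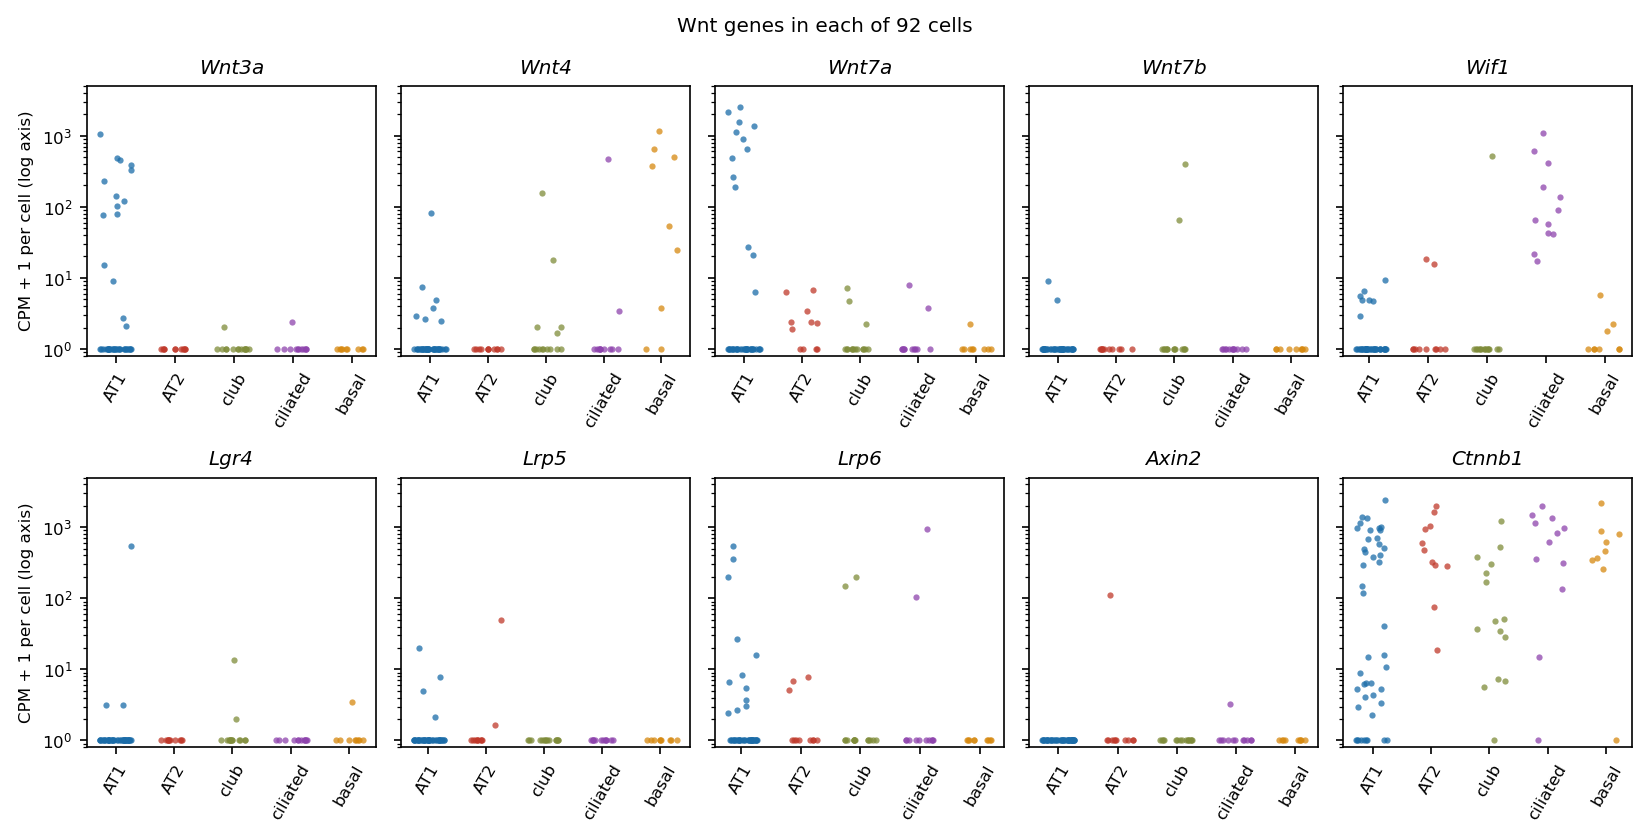
Each point is 1 of the 92 kept cells, with CPM + 1 on a log axis for each of the 10 genes by group (points at 1 are cells without a read). High *Wnt3a* and *Wnt7a* values sit in AT1 cells, high *Wnt4* in basal-like and high *Wif1* in ciliated-like cells, and *Ctnnb1* is spread over all groups.

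Few AT1 cells had both of the AT1 ligands. Of the 20 AT1 cells with 10 or more reads of either, 2 had both: 66 *Wnt3a* and 1323 *Wnt7a* reads at column 4, row 36, and 231 and 14 reads at column 12, row 8. Thus 2 of the 11 *Wnt3a* cells (18.2%) and 9 of the other 34 (26.5%) had 10 or more *Wnt7a* reads. After each cell was thinned to 90000 reads, a *Wnt7a* read was in 3 of 14 cells with *Wnt3a* and 9 of 31 without. These shares lie close to each other, so no avoidance of one ligand by the other is read from them. The cells did not sit in different clusters. In the clusters of 23 and 22 AT1 cells, 6 and 5 of the *Wnt3a* cells and 7 and 4 of the *Wnt7a* cells fell in each. Depth moved with both ligands: cells with 10 or more *Wnt3a* reads had a median of 651637 total reads and those of *Wnt7a* 623529, against 378673 in the 25 AT1 cells with neither. The part of depth in this pattern was not tested. Median *Ager* was 26246 CPM in the *Wnt3a* cells and 22433 CPM in the *Wnt7a* cells.

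**Figure D2:**
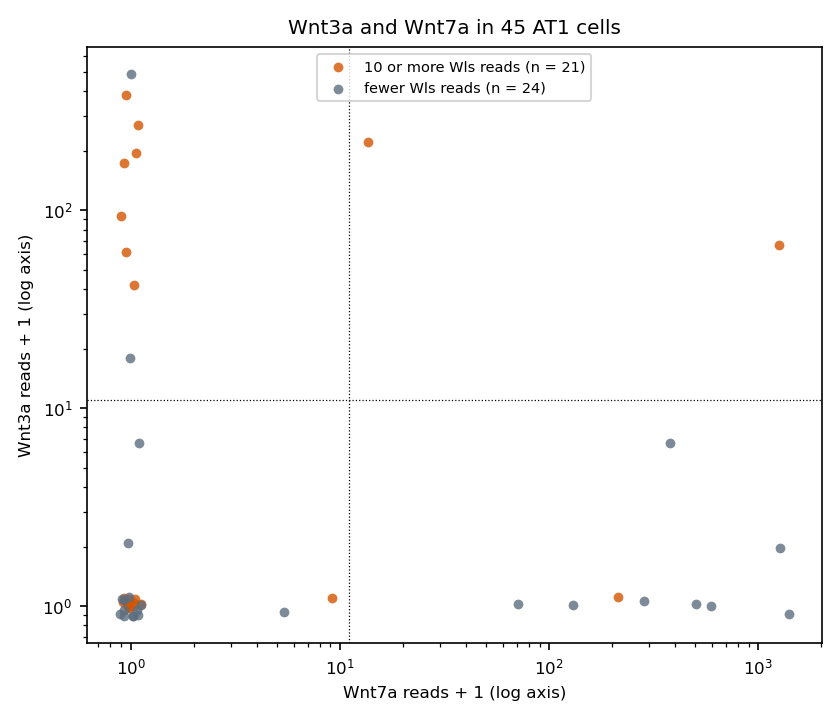
Reads of *Wnt3a* against reads of *Wnt7a*, each plus 1 on log axes, in the 45 AT1 cells, with a small random shift so that points do not cover each other. Dotted lines mark 10 reads, only 2 cells lie past both, and orange marks the 21 cells with 10 or more *Wls* reads.

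*Wnt4*, a ligand known from several developing epithelia, had 1975 reads in the rest, 30 in AT1 cells and 0 in AT2 cells. The basal-like cells carried most of it, with 1744 reads and 238 CPM (227 to 249), while ciliated-like cells stood at 26.6 CPM and club-like cells at 4.20 CPM. In the 9 basal-like cells its level ran from 0 through a median of 52.2 to 1160 CPM, and 6 of them had 641, 425, 322, 272, 66 and 16 reads. The 4 highest all had reads of *Krt5*, *Trp63* and *Krt15*, which mark basal cells. The cell with 66 reads was the one with collagen reads. Without it the basal-like level was 277 CPM in 8 cells, 5 of them with 10 or more reads. Outside the basal-like group, 1 ciliated-like cell had 175 reads, 1 club-like cell had 49 and 1 AT1 cell had 24. The log2 ratio of AT1 cells to the rest was −5.82 (−6.39 to −5.30), and the rest were at least 158-fold above AT2 cells. In basal-like cells *Wnt4* stood at 71.2 CPM over chip columns 1 to 10 (6 cells) and 596 CPM over columns 11 to 20 (3 cells).

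*Wnt7b*, the ligand closest to *Wnt7a* within the family, had 420 reads in the rest, 6 in AT1 cells and 0 in AT2 cells. A single club-like cell, at column 3 and row 7, held 400 of them (95.2%), and a second club-like cell held the other 20. The cell with 400 reads had *Scgb1a1* at 268104 CPM and 8 of 9 club markers at 100 CPM or more. The log2 ratio of AT1 cells to the rest, −5.90, became −2.52 without the top cell of each class, and that of AT2 cells became −0.56. The level of *Wnt7b* in the rest is therefore the level of 1 cell. *AU022754* lies on the opposite strand of *Wnt7b*, and had no read in the cell with 400.

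Among the kept cells, the antagonist *Wif1* was read mainly in the ciliated-like cells. All 12 of them had its reads, from 16.2 through 76.7 to 1096 CPM, and 9 of them had 10 or more. Their summed level was 275 CPM (262 to 288), or 201 CPM without the cell with 729 reads. It was 81.1 CPM over chip columns 1 to 10 (4 cells) and 382 CPM over columns 11 to 20 (8 cells). AT1 cells had 10 reads in all and AT2 cells 9. The rest had 2342, of which 519 came from 1 club-like cell at column 9 and row 33 that had 8 of 10 ciliated markers at 100 CPM or more together with *Scgb1a1* at 376780 CPM. The log2 ratio of AT1 cells to the rest was −7.65 (−8.71 to −6.76) and that of AT2 cells to the rest was −5.96 (−7.09 to −5.03). Neighbors in pattern, meaning genes with a Spearman correlation of 0.5 or more, were looked for in the 6 genes with enough cells (*Wnt7b*, *Lgr4*, *Lrp5* and *Axin2* had reads in too few), and of these *Wif1* alone had any. Over the 92 cells its log-normalized values had Spearman correlations of 0.74 with *Cfap126*, 0.73 with *Tekt1* and 0.70 with *Map1b*, of which the first 2 encode proteins of the ciliary axoneme. Within the 12 ciliated-like cells the same correlations were 0.10, −0.37 and −0.18. These are descriptions over cells that share 1 chip.

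The co-receptors and *Lgr4* were seen in few cells. They lie at chr6:134446476-134566965 (*Lrp6*), chr19:3584828-3686564 (*Lrp5*) and chr2:109917647-110014257 (*Lgr4*). *Lrp6*, a co-receptor that receives canonical Wnt signals with Frizzled, had 668 reads in AT1 cells, 699 in the rest and 9 in AT2 cells. In AT1 cells 3 had 10 or more reads, and 1 of these, at column 4 and row 36, held 462 (69.2%). This was the cell with the most *Wnt7a* reads. In the rest, 4 cells had 53 to 348 reads each, 2 club-like and 2 ciliated-like, and no basal-like cell had any. AT1 cells and the rest stood at 28.9 and 25.8 CPM, a log2 ratio of 0.16 (0.01 to 0.32) that turned to −0.51 without the top cells. Against AT2 cells the AT1 ratio was 4.38 (3.44 to 5.51). All 3 of the AT1 cells with 10 or more *Lrp6* reads lay in chip columns 1 to 10. The log2 ratio of AT1 cells to the rest was 2.62 there and −6.79 over columns 11 to 20, so the 2 sides gave opposite directions. Each rests on few cells: in the rest, 1 cell with 10 or more reads lay in columns 1 to 10 and 3 in columns 11 to 20. An effect of chip position was not tested. Columns 11 to 20 held 5 reads in AT1 and 7 in AT2 cells, too few for a ratio by the minimum of 50 reads used here. *Lrp5*, its paralog, had 12 reads in AT1 cells, 36 in AT2 cells and 0 in the rest, and 35 of those 36 were in 1 cell at column 13 and row 35. With under 50 reads it was left out of the ratios. *Lgr4* had 516 reads in AT1 cells, 513 of them in 1 cell at column 4 and row 6 that also had 1270 *Wnt7a* reads. The other 91 cells held 8 reads between them, so that the ratio of 6.91 to the rest has no counterpart without that cell.

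*Axin2*, a common readout of β-catenin activity, was read in 2 of the 92 kept cells. One AT2 cell at column 12 and row 33 had 163 reads (110 CPM), and 1 ciliated-like cell had 1 read. The AT1 class had 0 reads of *Axin2* in 23130868, which allows up to 0.130 CPM at 3 reads. Likewise 0 of 45 cells allows a share of up to 6.67% of cells with a read, which does not limit the share of cells expressing the gene at a level too low to be read. The *Axin2* cell was a deep one, with 1483749 reads, and had 10 of 10 AT2 markers at 100 CPM or more. It also held 597 reads of *Ccnd1*, 1011 of *Tcf7l1* and 20 of *Nkd1*. The log2 ratio of AT2 cells to the rest was 9.41 (6.91 to 14.72), and no ratio could be given without that cell, since all *Axin2* reads but 1 were in it. Among the other 10 AT2 cells, 0 had a read.

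*Ctnnb1*, which encodes β-catenin of both the pathway and the adherens junction (chr9:120929216-120960507), was the one gene of the 10 read in most cells of every class. AT2 cells all had it, from 17.9 through 469 to 1958 CPM. The rest ran from 0 through 327 to 2153 CPM with reads in 33 of 36 cells, and AT1 cells from 0 through 14.9 to 2376 CPM with reads in 36 of 45. The ranges overlapped widely. Summed levels were 673 CPM in AT2 cells, 467 CPM in the rest and 355 CPM in AT1 cells. Within the rest they were 821 CPM in ciliated-like, 573 CPM in basal-like and 230 CPM in club-like cells. Without the basal-like cell with collagen reads, the basal-like level was 561 CPM in 8 cells. Over all kept cells none of the ratios between the 3 classes reached 4-fold, the largest being −0.92 on the log2 scale for AT1 against AT2 cells. The 2 sides of the chip differed in this, and an effect of chip position was not tested. In AT1 cells the level was 527 CPM over chip columns 1 to 10 and 127.5 CPM over columns 11 to 20, against 410 and 563 CPM in the rest. The log2 ratio of AT1 cells to the rest was thus 0.36 on one side and −2.14, past 4-fold, on the other. AT2 cells stood at 1087 and 357 CPM. *Ulk4* overlaps *Ctnnb1* on the opposite strand and had 1421 reads in the ciliated-like cells, where 6 cells had reads of both genes. Whether the counting used strand is not given in the sources used here, so the ciliated-like value may hold reads of *Ulk4*.

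Calls were made where a gene had 50 reads or more over 2 classes and its CPM differed by 4-fold or more. In AT1 cells against the rest, 8 of the 10 genes could be compared: *Wnt3a*, *Wnt7a* and *Lgr4* were higher in AT1 cells and *Wnt4*, *Wnt7b* and *Wif1* in the rest. Over all 12650 genes compared, 20.7% were higher in AT1 cells and 28.9% in the rest. In AT2 cells against the rest, 1 of 6 genes was higher in AT2 cells (*Axin2*) and 4 were higher in the rest (*Wnt4*, *Wnt7b*, *Wif1* and *Lrp6*), with 11.2% and 48.5% of all genes. In AT1 against AT2 cells, 4 of 6 were higher in AT1 cells (*Wnt3a*, *Wnt7a*, *Lgr4* and *Lrp6*) and *Axin2* was higher in AT2 cells, with 45.2% and 13.8% of all genes. With 6 to 8 genes compared, these shares are no result about the genes as a set. The median log2 ratio over all genes was −0.20, −1.76 and 1.42 in the 3 comparisons, so AT2 cells stood lower for most genes. Taking the 50 genes with the most reads out of the library size left all 16 calls past 4-fold.

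**Figure D3:**
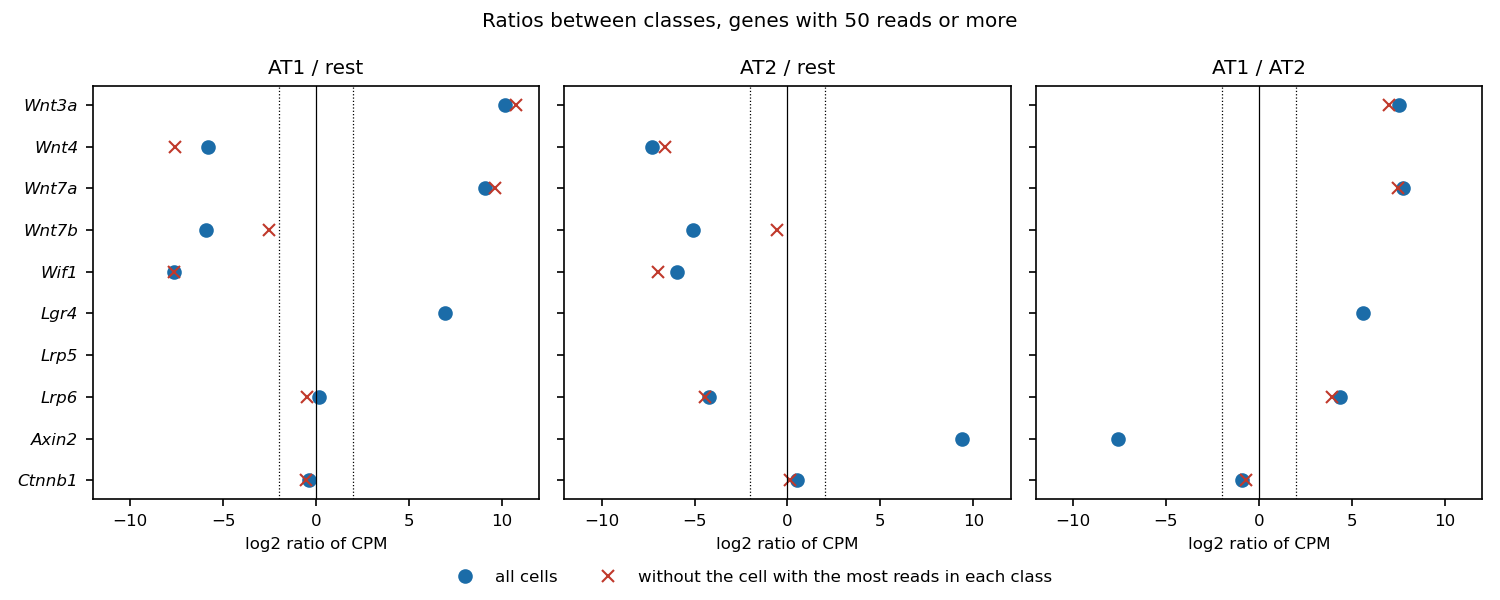
Log2 ratios of CPM between classes for the 10 genes, from all kept cells (circles) and without the cell with the most reads in each class (crosses), with dotted lines at 4-fold. The called ratios of *Wnt3a*, *Wnt7a* and *Wif1* move by up to about 1 unit (*Wif1* in AT2 cells to the rest, from −5.96 to −6.98) and stay past 4-fold, *Wnt7b* moves toward 0, and *Lgr4* and *Axin2* have no cross because their reads came from 1 cell.

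Detection was then compared at equal depth. After thinning to 90000 reads per cell, 3 of the 10 genes had a read in at least 20% of AT1 cells (*Wnt3a* in 14 of 45, *Wnt7a* in 12 and *Ctnnb1* in 28), 1 in AT2 cells (*Ctnnb1* in 11 of 11) and 3 in the rest (*Wnt4* in 9 of 36, *Wif1* in 13 and *Ctnnb1* in 32). Over the 15892 genes with a read in a kept cell, 20.9%, 20.8% and 21.1% reached that share in the same 3 classes. For *Wnt3a* the thinned share was 31.1% in AT1 cells (18.2 to 46.6) and 0% in the rest (0 to 9.74). For *Wif1* it was 100% in ciliated-like cells (73.5 to 100) and 8.89% in AT1 cells (2.48 to 21.2). For *Wnt4* it was 66.7% in basal-like cells (29.9 to 92.5) and 4.44% in AT1 cells (0.543 to 15.1). The basal-like cells here include the one with collagen reads and no basal marker at 100 CPM. *Ctnnb1* was read in 62.2% of AT1 cells (46.5 to 76.2) and 88.9% of the rest (73.9 to 96.9). *Axin2* and *Wnt7b* were each read in 2 or fewer cells of any class.

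Without thinning, *Wnt7a* had a read in 7 of 11 AT2 cells (63.6%) and in 13 of 45 AT1 cells (28.9%), which goes against its CPM of 1.24 and 265. None of the AT2 cells had more than 2 reads, and 0 of 11 reached 10 reads, against 11 of 45 AT1 cells. No order is read from that share. Over all cells, removed ones included, 21 had 1 to 9 *Wnt7a* reads, and 71.4% of them shared a chip column with a cell that had 10 or more, against 40.7% of the cells without a read. For *Wif1* these shares were 78.9% and 56.9%, and for *Wnt4* 68.8% and 33.9%. Reads in such low cells made up 0.650% of all *Wnt7a* reads. *Scgb1a1*, which marks club cells, had a read in 43 of 45 AT1 cells, at a median of 177 CPM against 300658 CPM in club-like cells.

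**Figure D4:**
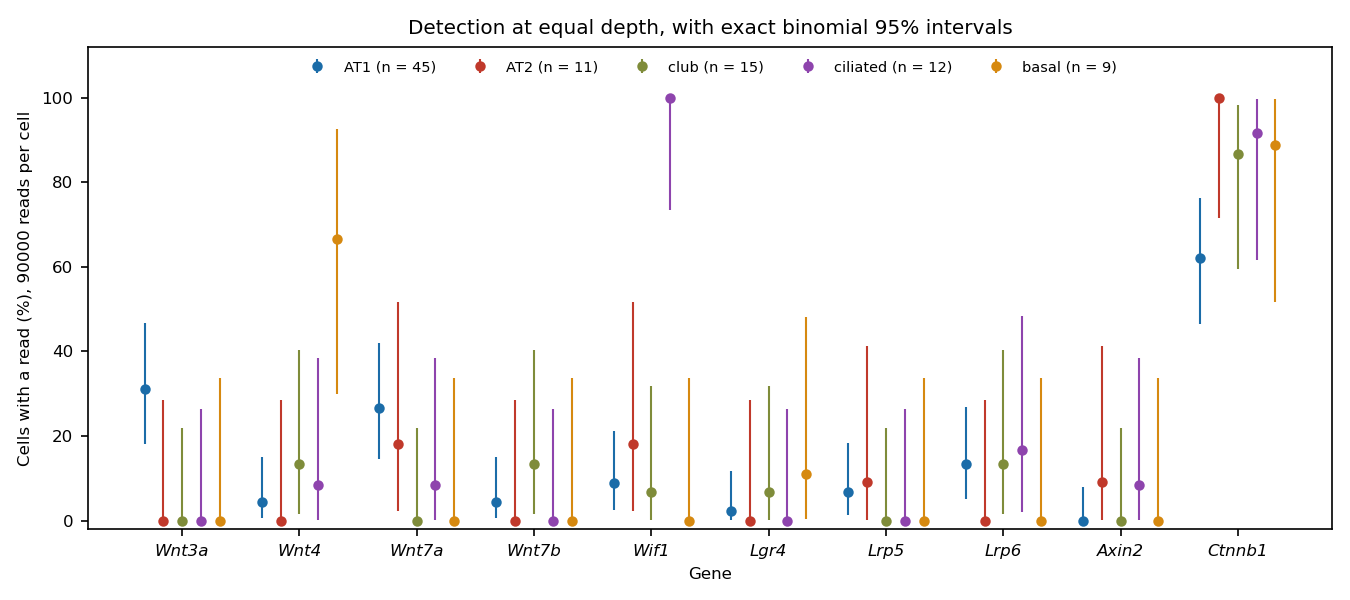
Share of cells with a read of each gene after every cell was thinned to 90000 reads, by group, with exact binomial 95% intervals. The intervals of *Wif1* in ciliated-like cells (73.5 to 100%) and *Wnt4* in basal-like cells (29.9 to 92.5%) lie highest among the ligands and antagonist, and many of the others start at 0.

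The other genes of the pathway were taken from a list ordered by role, of which 91 were in the table with the 10 included. In AT1 cells against the rest, 17 of 73 compared were higher in AT1 cells and 27 in the rest, beside 20.7% and 28.9% of all genes, with a median log2 ratio of −0.04 beside −0.20. Without the top cell of each class, 12 of the 17 and 19 of the 27 stayed past 4-fold. The counts by role below are small, are to be read against the same 2 shares, and single out no role. Among ligands, 2 of 9 were higher in AT1 cells and 6 in the rest. Of those 6, *Wnt5b* had all of its reads in the rest in 1 cell, and *Wnt5a* 563 of 614 and *Wnt7b* 400 of 420. In the rest *Wnt10a* had 533, 346 and 26 reads in 3 basal-like cells and *Wnt11* 278, 232 and 220 reads in 3 ciliated-like cells. *Porcn*, the enzyme that adds the lipid to Wnt proteins, stood at 21 CPM in AT1 cells, 0.926 CPM in AT2 cells and 151 CPM in the rest. Of its 486 AT1 reads, 423 were in 1 cell. Of its 4086 reads in the rest, 1530 were in 1 cell and 1382 in another, and 11 of the 36 cells had 10 or more. *Wls*, the carrier that takes Wnt proteins to the surface, had 10 or more reads in 21 of 45 AT1 cells, 4 of 11 AT2 cells and 14 of 36 of the rest.

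Among the receptors *Fzd2*, a Frizzled receptor, had a read in 25 of 45 AT1 cells at equal depth and stood at 167 CPM, against 7.54 CPM in the rest (log2 ratio 4.47) and 0.154 CPM in AT2 cells. *Reck*, known as a partner of *Wnt7a* and *Wnt7b* signaling in blood vessels of the brain, stood at 36.5 CPM in AT1 cells and 6.14 CPM in the rest, and had no read in AT2 cells. It had 10 or more reads in 8 AT1 cells: 4 of the 11 *Wnt7a* cells and 4 of the other 34. The *Wnt7a* cells were deeper than AT1 cells with neither ligand, at medians of 623529 and 378673 reads. The part of depth was not tested, and no relation between the 2 genes is read from so few cells. In the rest, 157 of the 166 *Reck* reads were in the basal-like cell with collagen reads. *Fzd7* was also higher in AT1 cells, at 22.8 against 3.03 CPM. *Ptk7* and *Tspan12* were higher in the rest, with 2 reads each in AT1 cells against 293 and 1090. In all, 4 of 15 receptors and co-receptors were higher in AT1 cells and 5 in the rest, where *Fzd4* and *Fzd10* had all of their reads in 1 cell each. Against AT2 cells, 6 of 10 were higher in AT1 cells, beside 45.2% of all genes. Among them were *Fzd1* (57.8 against 1.39 CPM) and *Fzd5* (48.7 against 0.926 CPM). These had 10 or more reads in 10 and 7 of the 45 AT1 cells and in 0 of the 11 AT2 cells. A single AT1 cell held 600 of the 1126 *Fzd5* reads.

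*Rnf43* and *Znrf3*, which take Frizzled receptors off the surface, stood at 66 and 43.6 CPM in AT1 cells against 8.21 and 4.18 CPM in the rest. In AT1 cells they had 10 or more reads in 6 and 5 of the 45 cells. In the rest, 218 of 222 *Rnf43* reads came from 1 ciliated-like cell and all *Znrf3* reads from 1 basal-like cell. These levels thus rest on few cells in each class. AT2 cells had *Rnf43* at 87.5 CPM, above AT1 cells, with 514 of 567 reads in 1 cell, and 3 reads of *Znrf3*. *Lgr6*, a relative of *Lgr4*, was the reverse, at 0.259 against 24.4 CPM, with 274 reads in 1 basal-like cell and 260 in 1 club-like cell. *Lgr5* had 1 read in the 92 cells. With *Lgr4* and *Rspo1*, 3 of the 5 genes of the R-spondin axis that could be compared were higher in AT1 cells and 2 in the rest. *Lgr4* and *Rspo1* have no ratio without their top cells, *Rspo1* having 1 read left in the rest of 412.

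**Figure D5:**
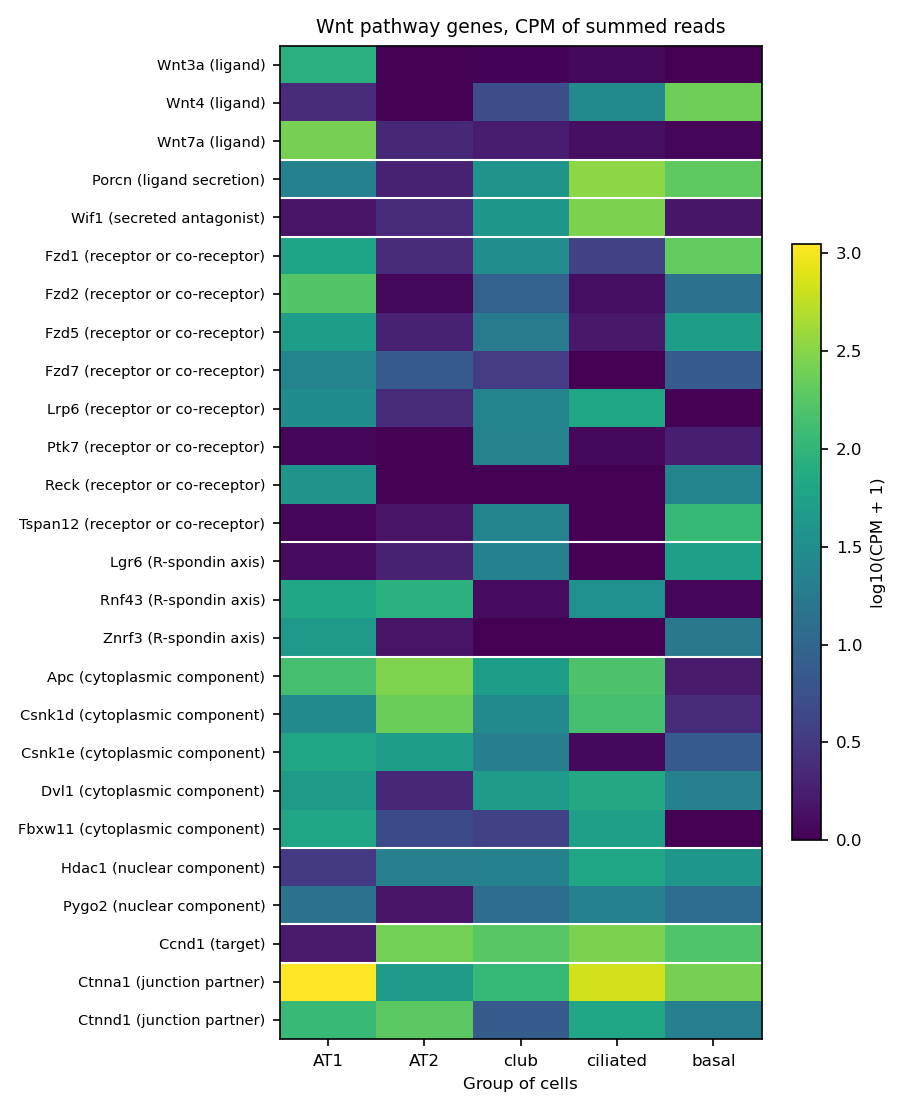
Summed level of each named pathway gene in the 5 groups, as log10(CPM + 1), grouped by role. AT1 cells stand high for *Wnt3a*, *Wnt7a*, *Fzd2* and *Ctnna1* and low for *Wif1* and *Ccnd1*.

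Inside the cell, most components were read in all classes. Of 18 cytoplasmic components, 5 were higher in AT1 cells and 2 in the rest, with *Csnk1e* at 63.2 against 11.4 CPM and *Fbxw11* at 60.8 against 14 CPM. In *Csnk1e* 1 AT1 cell held 863 of 1461 reads and in *Fbxw11* 1 held 911 of 1407, and both ratios stayed past 4-fold without the top cells (3.68 and 2.47 on the log2 scale). The other 3 did not, with *Dvl2* at 1.44, *Tnks* at 1.81 and *Btrc* at −1.97. *Apc* of the β-catenin destruction complex stood at 289 CPM in AT2 cells and 62.4 CPM in the rest, and *Csnk1d* at 229 and 48 CPM. The latter fell to a log2 ratio of 1.78 without the top cells, under 4-fold. *Dvl1*, which relays the signal from Frizzled, stood at 1.24 CPM in AT2 cells, 44.2 CPM in AT1 cells and 45 CPM in the rest. It had 10 or more reads in 5 of 45 AT1 cells, 4 of 36 cells of the rest and 0 of 11 AT2 cells. With so few cells, no order of the classes is read from these levels. Among the nuclear components *Hdac1*, a histone deacetylase, stood at 2.25 CPM in AT1 cells and 35.6 CPM in the rest. *Pygo2* stood at 0.463 CPM in AT2 cells and 13.5 CPM in the rest. It had 10 or more reads in 3 of 36 cells of the rest and 0 of 11 AT2 cells, too few to read an order. *Lef1* had no read in any kept cell.

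Other targets were read in more cells than *Axin2*. *Ccnd1*, cyclin D1 of the cell cycle, had 15 reads in all 45 AT1 cells and no more than 2 in any of them, against 5330 reads in the rest and 1589 in AT2 cells. The levels were 0.648, 197 and 245 CPM. *Nkd1*, a feedback inhibitor induced by Wnt signals, had 355, 314, 306 and 20 reads in 4 of the 11 AT2 cells, 3 reads in AT1 cells and 42 in the basal-like cell with collagen reads. The cell with 20 *Nkd1* reads was the *Axin2* cell. Among other genes of the adherens junction, *Ctnna1* stood at 1108 CPM in AT1 cells, read in 41 of 45. It stood at 47.6 CPM in AT2 cells and 291 CPM in the rest. *Ctnnd1* stood at 111.8 CPM in AT1 cells and 186 CPM in AT2 cells, both above the 23.7 CPM of the rest. *Wls*, *Wnt5a*, *Wnt5b*, *Wnt10a*, *Wnt11*, *Fzd4*, *Fzd10*, *Rspo1*, *Lgr5*, *Dvl2*, *Tnks*, *Btrc*, *Lef1*, *Nkd1* and *Tcf7l1* fall outside the rule for named pathway genes and were picked after their values were seen.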

How the data were processed

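Per the labels and the study's methods, adapter trimming by the authors used Trim Galore with FastQC, alignment used HISAT2 against GRCm38 and counting per gene used featureCounts. The versions, the strand setting and the handling of shared reads are not given in the sources used here. The deposited values are raw counts of reads per gene and cell, with no molecular identifiers stated, in 17136 genes (0 columns unused). Depth was 91402 to 2170760 reads per cell. Wells with more than 1 cell were excluded by the authors under the microscope, and no doublet caller was run here.

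Counts were summed per class and divided by total reads (CPM), with exact Poisson 95% intervals for sums and Clopper-Pearson intervals for shares. A class at 0 was set to 3 reads. The deposited counts have 1 mouse behind them, so no count model such as edgeR was fitted. Cells were thinned to 90000 reads drawn without replacement (seed 1). Clusters came from Seurat 5.3.0 in R 4.3.3, with 2000 variable genes less the Wnt genes, 10 components, 10 neighbours and resolutions 0.8 and 1.6, named from marker lists. Sums, thinning and intervals were computed in Python 3.11.15 (pandas 2.3.3, scipy 1.17.1, numpy 2.4.6), figures in matplotlib 3.10.9, and the ratio code was tested on simulated counts. Gene positions came from GENCODE for GRCm38 and start sequences from RefSeq. Beside the 10 genes, pathway genes were named where they were called 4-fold and had a read in 5 cells of the higher class after thinning. Neighbors in pattern needed a Spearman correlation of 0.5 among genes read in 20 cells. The genes and lists were chosen with earlier results of these data known. Alternatives were other mitochondrial maxima, class cuts, library sizes, cell weights, read minima, chip columns and depths.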

Additional observations from a re-analysis of the deposited data

Results flagged for a closer look

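The 49 cells left out for a mitochondrial share of 15% or more (19 AT1, 16 AT2 and 14 of the rest by the same cuts, with a median of 292455 reads) were flagged because they hold more than 3 reads of each of 9 of the 10 genes and entered no comparison. They had 3900 *Wif1* reads, 3783 of them in 1 cell of the rest at column 19 and row 5. That cell had *Wif1* at 20573 CPM, above every kept cell. At 100 CPM or more it had 3 of 10 ciliated, 3 of 9 club and 4 of 10 AT2 markers, so it was not clearly ciliated. The removed cells had 188 *Axin2* reads, and again 0 in AT1 cells. Of the 188, 187 were in an AT2 cell at column 19 and row 17 with *Sftpc* at 100286 CPM. They had 93 reads of *Wnt3a* and 152 of *Wnt7a*, of which 92 and 150 were in AT1 cells, so the other classes again had next to none. They had 44 *Wnt4* reads, 40 of them in 1 cell of the rest at column 3 and row 5, which also held 53 of the 60 *Lrp5* reads. The remaining sums were 11 reads of *Wnt7b*, 453 of *Lrp6* (397 in AT1 cells) and 4345 of *Ctnnb1*. The AT1 levels in these cells were 11.5 CPM for *Wnt3a* and 18.8 CPM for *Wnt7a*, each from 1 cell with 10 or more reads.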

How the results depend on the processing

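The 16 ratios past 4-fold were recomputed under 12 alternatives, 192 cases in all. In 13 cases no ratio could be formed, 4 of them without the top cells (*Lgr4* and *Axin2*) and the others with a mitochondrial maximum of 10% or on 1 side of the chip. Of the other 179, 174 stayed past 4-fold in the same direction and 1 reversed: *Lrp6* in AT1 against AT2 cells, at −1.93 with chip columns 11 to 20 alone, from 5 and 7 reads. The other 4 values fell under 4-fold: with a mitochondrial maximum of 10%, *Wnt7b* at −1.84 (AT1 to rest) and −0.22 (AT2 to rest) and *Lgr4* at 0.16, and without the top cells *Wnt7b* at −0.56 (AT2 to rest). The counts of genes higher in AT2 cells were the least stable, since 1 cell carried them. The count was 1 against both other classes and became 0 without the top cell of each class, 0 with a mitochondrial maximum of 10% (which removes the *Axin2* cell) and 0 in chip columns 1 to 10. It became 2, with *Lrp5*, without a minimum of reads, and 2 against AT1 cells with no mitochondrial maximum. The count higher in AT1 than in AT2 cells went from 4 to 2 (*Wnt3a* and *Wnt7a*) in columns 11 to 20. Genes read in at least 20% of AT2 cells went from 1 to 3 without thinning and to 3 at 200000 reads per cell. With a maximum of 10%, AT1 cells were 38% of 50 cells and the rest 50%. Clusters went from 4 to 2 with 20 neighbours. No paired analysis was possible because there is 1 mouse, 1 condition and no result from a test. A gene absent from a cell at this depth may have been missed.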

Other observations

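*Wls* and the 2 AT1 ligands were compared after their values were seen, so what follows is a description. In AT1 cells 9 of the 11 cells with 10 or more *Wnt3a* reads also had 10 or more *Wls* reads, with a median of 194, while 3 of the 11 *Wnt7a* cells did, with a median of 1. Of the 25 AT1 cells with neither ligand, 11 had them. *Ctnnb1* had 10 or more reads in 8 of the *Wnt3a* cells, 6 of the *Wnt7a* cells and 8 of the 25 with neither. The *Wnt3a* and *Wnt7a* cells had similar depth, at medians of 651637 and 623529 reads, and the 25 cells were shallower, at 378673.

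Leaving *Ctnnb1* aside, 21 of 45 AT1 cells, 2 of 11 AT2 cells and 20 of 36 cells of the rest had 10 or more reads of at least 1 of the other 9 genes. Within the rest this was 9 of 12 ciliated-like, 6 of 9 basal-like and 5 of 15 club-like cells, and the most in 1 cell was 3. The ciliated-like cell at column 17 and row 29 had 278 *Wnt11*, 175 *Wnt4*, 348 *Lrp6* and 33 *Wif1* reads together. It was 1 of 3 ciliated-like cells with *Wnt11*. These 3 cells had *Wif1* at 89.3, 20.5 and 40.7 CPM, against a median of 76.7 CPM in the 12 ciliated-like cells. No relation between the 2 genes is read from 3 cells.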
